A study of Homo sapiens and Mus musculus with 16 samples.

Results

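Accessible chromatin was described at 10 nuclear receptor genes other than the HNF4 family: NR1I2, NR1H4, PPARG, PPARA, RXRA, RARA, VDR, ESRRA, NR2F2 and NR3C1, and at their mouse orthologs. Every region that overlapped a gene body or the 50 kb on either side of it was taken, which gave 579 of the 364071 regions in 4 lists. The lists held 167 of 118107 regions for HPAF-II control (Cas9), 136 of 97047 for HPAF-II HNF4G-KO, 136 of 68074 for the KPC primary tumor line and 140 of 80843 for the KPC liver mets line. A window can also hold the start sites of neighboring genes, so a region in it need not act on the receptor gene.

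ATAC-seq, in which a transposase cuts DNA that nucleosomes leave open, was run on 16 samples in 4 groups of 4 replicates. HPAF-II is an established human pancreatic adenocarcinoma line, and in its HNF4G-KO cells the gene for the nuclear receptor HNF4G was disrupted by CRISPR, in clones that the methods say were pooled, with Cas9 cells as the control. KPC lines come from a genetically engineered mouse model of pancreatic cancer, and the study treats its primary tumor and liver mets lines as a matched pair. No treatment, time point or age was given for these cells. Each group was represented by 1 region list, so no replicate spread was available and no test between groups was possible. Intervals given here are 95% Wilson intervals for shares, and they cover counting error only. The reads behind each list are unknown, and a list made with more or better reads holds more weak regions, which cannot be told apart from a change in accessibility.

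Start sites of the epithelial genes checked had a region in both HPAF-II lists for 7 of 7 genes and in both KPC lists for 6 of 7 (all but Cldn4), and none of the 3 blood cell genes had one in any list. None of the 3 hepatocyte genes (Alb, Apoa1, Ttr) had one in the liver mets list. ATAC regions do not show the edit at HNF4G itself.

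Nuclear receptors are transcription factors that many lipids, hormones and vitamins switch on by binding in a pocket of the protein. Most bind DNA at copies of a short half-site, and the order and spacing of the copies favor different receptors. RXRA is the common partner of NR1I2, NR1H4, the PPARs, RARA and VDR, whereas NR3C1 binds as a dimer of its own and ESRRA can bind as a single molecule. In pancreas and liver this family couples nutrients, bile acids and steroids to metabolism, and HNF4G is itself one of its members.

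A region was called shared when 1 bp or more of it lay under a region of its paired list, and otherwise control-only, KO-only, tumor-only or mets-only. The deposited score has no stated scale, so each region was given its score percentile within its own list, where 100 is the strongest. The sequences below are the highest-scoring KO-only, tumor-only and mets-only regions, 1 for each list. They are read from hg38 and mm10, and capitals mark half-sites on either strand, that is AGGTCA in which base 1 may also be G and base 3 may also be T.
RXRA intron, KO-only, hg38 chr9:134356961-134357260, plus strand: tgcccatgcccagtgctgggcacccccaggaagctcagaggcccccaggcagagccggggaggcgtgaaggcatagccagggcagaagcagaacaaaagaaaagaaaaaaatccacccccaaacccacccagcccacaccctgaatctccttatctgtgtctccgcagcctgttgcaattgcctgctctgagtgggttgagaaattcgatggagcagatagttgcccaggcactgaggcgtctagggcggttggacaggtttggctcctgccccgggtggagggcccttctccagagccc
Nr1h4 downstream, tumor-only, mm10 chr10:89439466-89439703, plus strand: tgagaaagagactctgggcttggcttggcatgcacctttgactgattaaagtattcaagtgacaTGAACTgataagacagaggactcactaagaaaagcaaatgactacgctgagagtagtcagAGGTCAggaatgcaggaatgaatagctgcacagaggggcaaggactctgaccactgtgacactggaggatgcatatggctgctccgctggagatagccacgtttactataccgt
Pparg downstream, mets-only, mm10 chr6:115510430-115510729, plus strand: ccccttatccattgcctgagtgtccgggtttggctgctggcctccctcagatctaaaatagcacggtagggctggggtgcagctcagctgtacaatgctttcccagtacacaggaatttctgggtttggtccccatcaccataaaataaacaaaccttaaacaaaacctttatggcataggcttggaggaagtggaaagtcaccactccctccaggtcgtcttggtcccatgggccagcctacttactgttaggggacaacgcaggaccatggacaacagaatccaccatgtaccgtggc
The Nr1h4 stretch held 2 half-sites, and the others held 0.

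At these loci the HPAF-II control list held more regions in 1 list than its knockout counterpart. Of 167 control regions, 36 were control-only (21.6%, 16.0 to 28.4), where 25.0% of all control regions were. Of 136 HNF4G-KO regions, 6 were KO-only (4.41%, 2.04 to 9.29), where 6.76% of all HNF4G-KO regions were. Both intervals held the share of their whole list. When both lists were limited to the same number of their strongest regions, the order turned, with 5.69% control-only and 8.94% KO-only at the loci, while over the lists it did not turn, at 13.7% and 11.7%. When both lists were cut to the upper 50% of their scores, 9.41% of control regions at the loci (8 of 85) had no counterpart in the cut HNF4G-KO list, against 22.1% of all. All 85 overlapped a region of the full HNF4G-KO list.

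In the KPC pair 13 of 136 primary tumor regions were tumor-only (9.56%, 5.67 to 15.7), where 8.51% of all primary tumor regions were. Of 140 mets regions 11 were mets-only (7.86%, 4.44 to 13.5), where 20.2% of all mets regions were. The mets-only share at the receptors thus lay below that of the mets list, outside its interval, and stayed between 6.72% and 9.09% when any single locus was left out. With 50% of both regions required to overlap it was 19.3%, against 27.0% of all mets regions, and with lists of equal size it was 6.19%, against 13.0%. The 36 other nuclear receptor genes had 16.7% mets-only regions (54 of 323, 13.0 to 21.2) and the 15 coregulator genes 9.30% (16 of 172, 5.81 to 14.6). A whole-list share also counts regions outside gene windows. Over the 8486 coding genes with 10 or more mets regions in the same window, the median mets-only share per gene was 11.8%. That median lies inside the interval of the receptor loci and that of the coregulators, so a difference from genes in general was not shown. The measures are unlike, since the median is over single genes and the shares are pooled over regions. A pooled share over all coding-gene windows was not computed.

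Regions in 1 list were weak, at these loci as over the whole lists. The strongest control-only region was at percentile 49.6, the strongest KO-only region at 35.9, the strongest tumor-only region at 19.4 and the strongest mets-only region at 43.4, so that 0 of the 66 such regions were in the upper 50% of their list. Over the whole lists 3.75% of control-only, 0.412% of KO-only, 2.95% of tumor-only and 10.3% of mets-only regions were. Median widths of regions in 1 list at the loci were 264.5, 302.5, 257 and 279 bp, where those of all such regions were 263, 234, 280 and 272 bp. For shared regions they were 546, 483, 567 and 491 bp at the loci and 565, 480, 546 and 470 bp over the lists.

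A region overlapped the 5′ end of at least 1 annotated transcript at 10 of 10 genes in the control list, at 9 of 10 in the HNF4G-KO list and at 7 of 10 in both KPC lists. The gene missing in HNF4G-KO was NR1H4, and those missing in KPC were Nr1i2, Rxra and Nr2f2. Within 1 kb of a start site, all 10 had a region in all 4 lists. These counts rest on any annotated transcript: the 5′ end of the gene itself lay under a region at 1 gene in control, 2 in HNF4G-KO, 4 in primary tumor and 3 in mets.

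**Figure D1:**
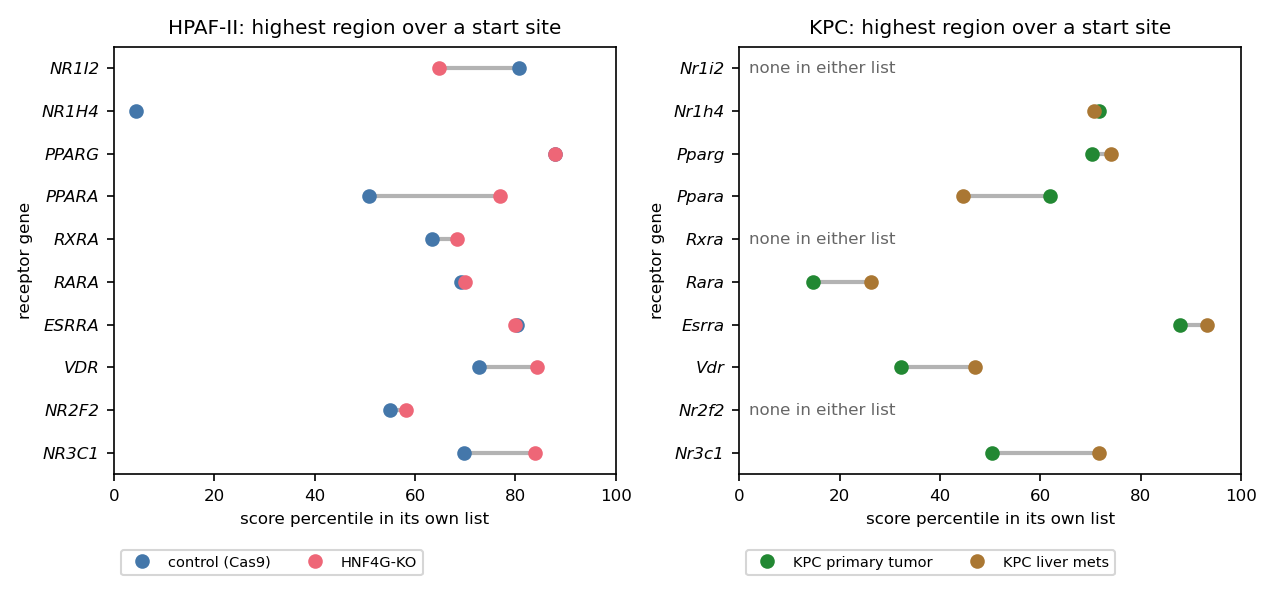
Score percentile, within its own list, of the highest region over a start site of each receptor gene, HPAF-II on the left and KPC on the right. Points are lists, and gray lines join the lists of a pair. PPARG sits at 87.8 and 87.9, NR1I2 lies lower in HNF4G-KO (64.7 against 80.8) and Nr3c1 higher in mets (71.7 against 50.4), while Nr1i2, Rxra and Nr2f2 have none. At RARA, VDR and Rara the points joined are different regions.

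For shared regions, scores were ranked again among the shared regions of each pair, and the change in that percentile is given. It differs from the difference of the percentiles in the lists. A region is said to have fallen or risen when it moved by 20 points or more, which is a description and not a test. From control to HNF4G-KO, 131 regions at the receptor loci moved by 3.19 points at the median (interval of the median, 0.19 to 5.89), against 0.0127 for all shared regions. Ranked within the whole lists this median turned to -0.86, against -4.65 for all, so that it lay above the background under both rankings. In all 17 rose (13.0%, 8.26 to 19.8) and 6 fell (4.58%, 2.12 to 9.63), where 6.23% of all shared regions rose and 6.89% fell.

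Part of this excess came from regions that were split in one list and joined in the other, where a small fragment took the rank of a wide region. Among the 118 regions that paired 1 to 1, 10 rose (8.47%, 4.67 to 14.9) and 5 fell (4.24%, 1.82 to 9.54), against 5.02% and 6.98% of all regions that paired 1 to 1. The median there was 2.94. From primary tumor to mets 123 regions moved by -0.79 points at the median (-2.80 to 1.58), against 0.19 for all. Of these 15 fell (12.2%, 7.53 to 19.1) and 7 rose (5.69%, 2.78 to 11.3), where 8.42% of all shared regions fell and 7.70% rose. Among 114 paired 1 to 1, 13 fell (11.4%, 6.79 to 18.5) and 6 rose (5.26%, 2.43 to 11.0), against 8.14% and 7.62%. The intervals of these shares hold the background in each case but the rises in HNF4G-KO over all pairs, and for regions paired 1 to 1 that interval holds it too.

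**Figure D2:**
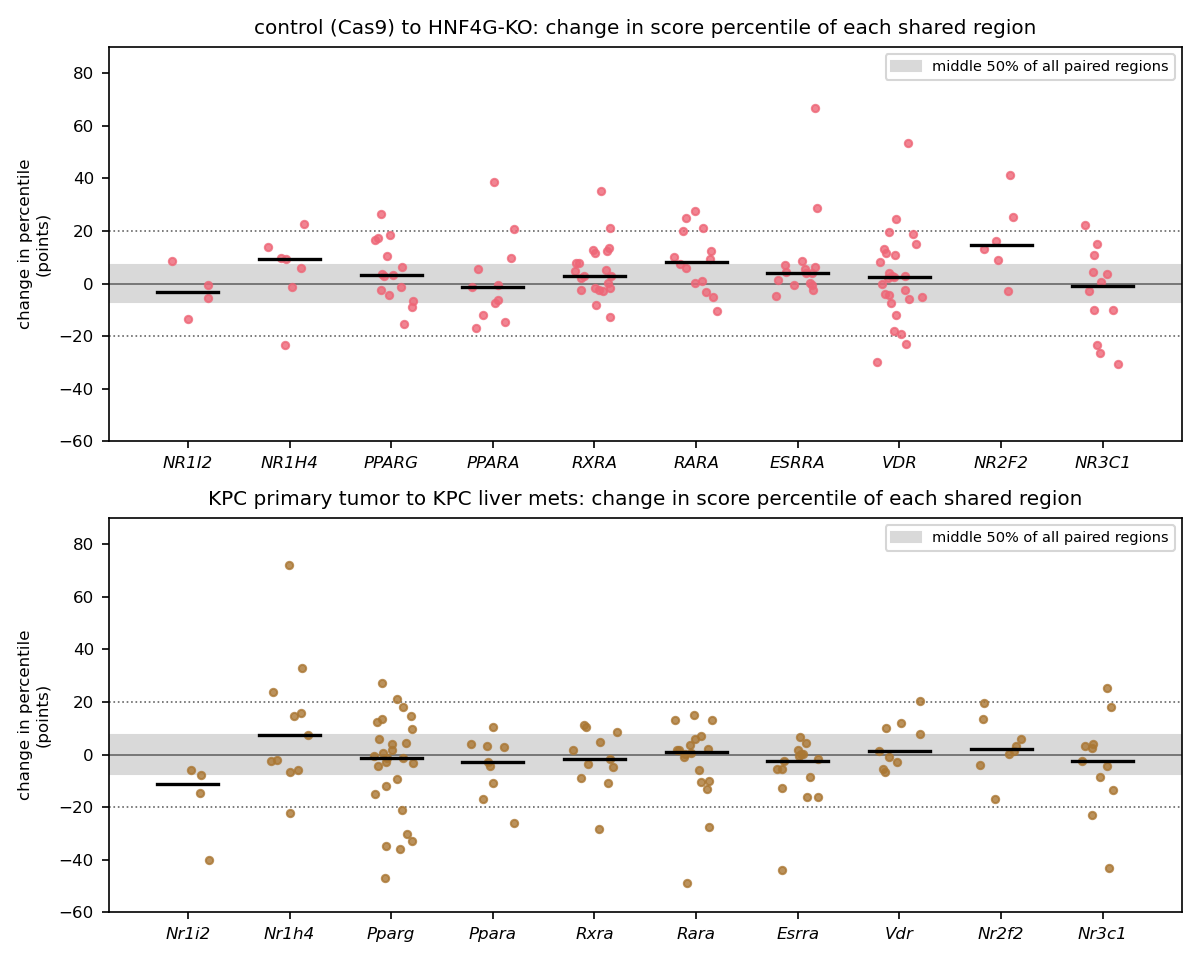
Change in score percentile (points, ranked among shared regions) of every shared region at each receptor locus, HNF4G-KO against control above and mets against primary tumor below. Black lines are medians, the gray band holds the middle 50% of all shared regions and dotted lines mark 20 points. The highest points of PPARA, ESRRA, VDR, NR2F2 and Nr1h4, from 38.8 to 72.0, are regions that did not pair 1 to 1.

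NR1I2, the xenobiotic sensor PXR, which turns on drug-metabolizing enzymes and transporters, had few regions. It held 6 in the control list and 4 in HNF4G-KO, all 4 of the latter shared, and 4 and 6 in primary tumor and mets. The region over its start site (hg38, chr3:119781437-119782694 in the control list) was at percentile 80.8 in control and 64.7 in HNF4G-KO, a change of -13.5 points. An intron region 14863 bp into the gene was nearly level, at 85.6 and 82.3. The higher of the 2 control-only regions lay downstream at 29.5. In KPC all 4 shared regions ranked lower in mets, and the 1 that fell (mm10, chr16:38245702-38246366, downstream of Nr1i2) went from 64.9 to 33.9, a change of -39.9. The region just ahead of Nr1i2, centered 916 bp upstream, was at 71.3 and 63.5. The higher of 2 mets-only regions lay downstream at 14.4, and the other, at percentile 2.76, was centered 221 bp upstream of the gene.

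NR1H4, the bile acid receptor FXR, which represses bile acid synthesis, was the receptor gene with the lowest-ranked start-site region in HPAF-II. That region spanned 200 bp and the 5′ ends of 5 transcripts, and it stood at percentile 4.44 in the control list with no counterpart in HNF4G-KO. A shared intron region centered 1150 bp into the gene was at 6.99 and 15.8. In a later intron, neighboring regions moved in opposite directions: chr12:100553966-100554296 rose from 4.22 to 29.5 (change 22.6) and chr12:100554645-100554934 fell from 51.1 to 17.3 (change -23.2). The strongest region of the window, at 91.4 and 88.4, covered a start site of the neighbor GAS2L3, as did the higher control-only region, at 11.3.

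Nr1h4, the mouse gene, had a start-site region at percentile 71.8 in the primary tumor list and 70.6 in mets (mm10, chr10:89533102-89533801), and an intron region 6354 bp into the gene at 96.5 and 95.6. An intron region 2130 bp into the gene rose from 44.2 to 71.1 (change 23.8), and one 14626 bp upstream rose from 10.0 to 51.1 (change 32.9). Another intron region fell from 55.1 to 41.3 (change -22.1). The tumor-only regions numbered 3 of 14, and the one printed above was at 19.4. The mets-only region lay in an intron at 21.7. The largest rise, 72.0 points, was in a fragment that did not pair 1 to 1.

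PPARG, the fatty acid receptor that drives fat cell formation, had the same start-site rank with and without HNF4G. The region (hg38, chr3:12287847-12289213) was at 87.8 in control and 87.9 in HNF4G-KO, a change of 2.73 points. Control-only regions numbered 5 of 20, 4 of them in introns and all at percentile 49.6 or lower, and 0 of 14 HNF4G-KO regions were KO-only. The highest of them lay 7594 bp into the gene. No PPARG region that paired 1 to 1 moved by 20 points, and the 1 rise, of 26.3 points, was downstream in a region that did not pair 1 to 1.

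Pparg held the most regions of any receptor in KPC, 31 in the primary tumor list and 28 in mets, and 8 of the 22 changes of 20 points or more there. Its start-site region was at 70.2 and 74.1. Of its 27 shared regions 6 fell and 2 rose, so that 6 of the 13 falls among KPC regions paired 1 to 1 were at this gene. Its largest fall was 46.8 points downstream of the gene: that region (mm10, chr6:115536197-115536709) was at 73.8 in the primary tumor list and 36.9 in mets. An intron region 92865 bp into the gene was among the strongest in the primary tumor list and went from 94.1 to 66.7 (change -35.8). A region 11038 bp upstream rose from 51.6 to 80.2 (change 27.2), while one 9313 bp upstream fell from 71.7 to 50.5 (change -30.2). The highest of 4 tumor-only regions lay in an intron at 19.0. The single mets-only region lay downstream at 43.4 and was the strongest mets-only region of all 10 loci.

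**Figure D3:**
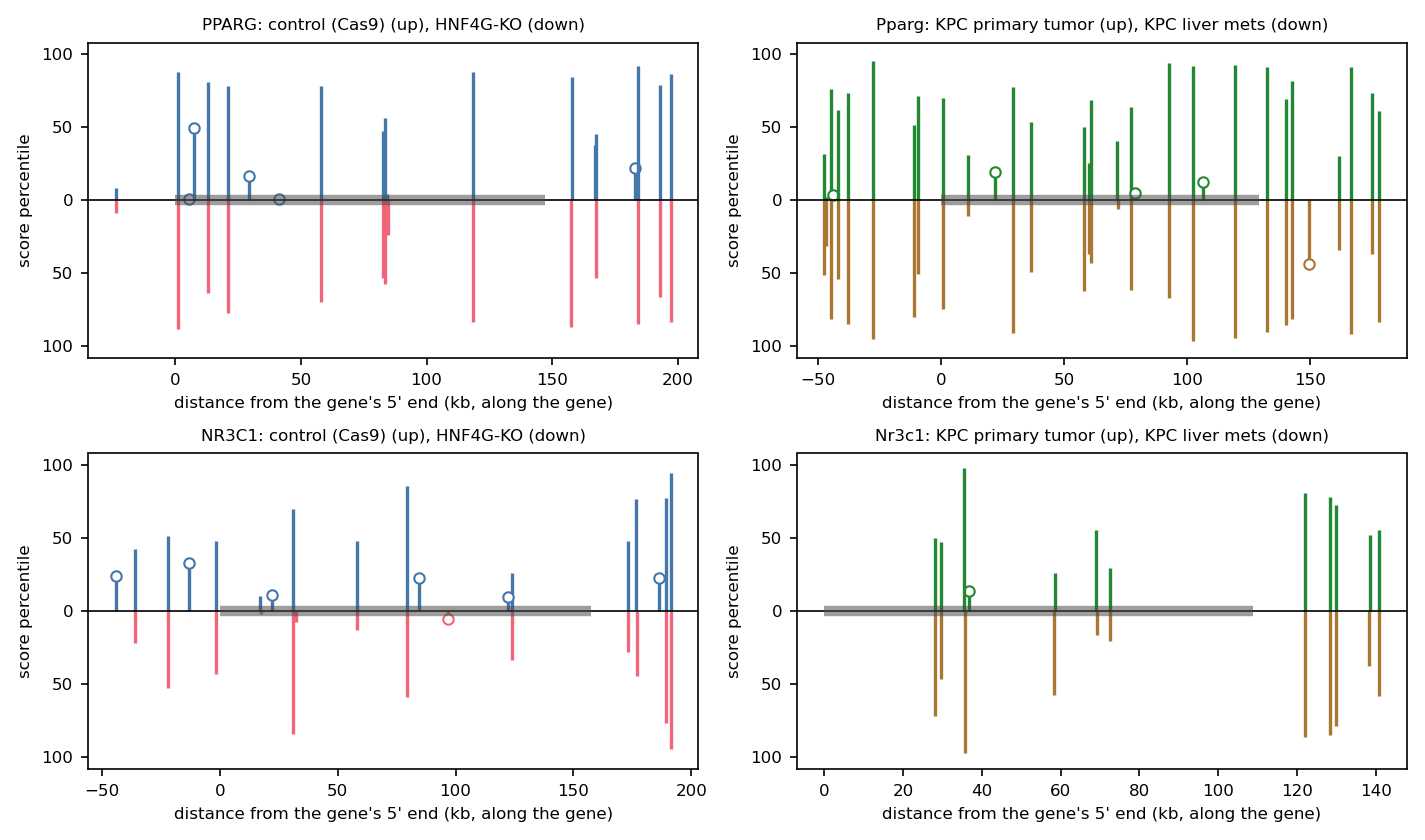
Regions at PPARG (top) and NR3C1 (bottom) by distance of the region center from the 5′ end of the gene, in kb along the gene, with HPAF-II on the left and KPC on the right. Bar height is the score percentile, upward for control or primary tumor and downward for HNF4G-KO or mets, open circles mark regions in 1 list and gray bars the gene body. The downstream Pparg region that fell from 73.8 to 36.9 and the NR3C1 intron region that fell from 85.5 to 58.9 can be seen beside regions that stayed level.

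PPARA, the receptor behind fatty acid oxidation in liver, had its start site covered by a region at percentile 50.8 in control and by a wider one at 76.9 in HNF4G-KO. The wide region joined that region with its upstream neighbor, at 65.0 in control, so the changes of 38.8 and 20.7 points were not from 1 to 1 pairs. An intron region 45593 bp into the gene was at 88.6 and 71.3 (change -16.7). The highest control-only region lay over another start site, 20796 bp into the gene, at 21.2. In KPC the Ppara start-site region fell from 61.9 to 44.7 (change -25.8, mm10, chr15:85734747-85735970), the 1 start-site region of a receptor that fell in KPC. The highest Ppara regions in 1 list were at 8.16 in primary tumor and 8.79 in mets.

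RXRA, the common partner, had the most regions of all in the control list (29), with 8 control-only, and 24 in HNF4G-KO, with 3 KO-only, of which 2 were the strongest KO-only regions at these loci. The region over a start site (hg38, chr9:134378880-134379412), 62048 bp into the gene, was at 63.4 and 68.4. Most of its regions lay in introns, 18 in control and 17 in HNF4G-KO. An intron region 8963 bp into the gene rose from 9.22 to 43.6 (change 35.1) and one at 11363 bp rose from 33.7 to 44.7 (change 21.2). No RXRA region fell. The highest control-only region, also in an intron, was at 39.6, and the KO-only region printed above was at 35.9. The strongest region, just downstream, kept its rank at 98.3 and 96.3. In mouse no region lay over an Rxra start site, and a downstream region fell from 89.6 to 68.8 (change -28.1). The highest Rxra regions in 1 list were at 7.81 in primary tumor and 27.1 in mets.

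RARA, the retinoic acid receptor, was the human locus with the most rises among 1 to 1 pairs, 4 of 10. Start-site regions of the control list were among them: chr17:40317973-40318379 rose from 55.7 to 70.0 (change 25.1) and chr17:40322382-40323127 from 61.7 to 72.4 (change 20.1). The HNF4G-KO region at 72.4 was narrower and covered no start site. In all RARA had 4 start-site regions in control and 2 in HNF4G-KO. The remaining shared start-site region was at 69.1 and 64.0 (change 1.10). The others that rose were an intron region (28.5 to 40.6) and a downstream one (15.8 to 39.4, change 27.7). Control-only regions numbered 4 of 18, of which the highest lay downstream at 49.6, and 0 of 14 HNF4G-KO regions were KO-only. In mouse the Rara start-site regions were weak, with the highest at 14.8 in the primary tumor list and another, of a different start, at 26.2 in mets, and 3 of 22 mets regions were mets-only, the highest of them in an intron at 36.5. The largest fall among all KPC regions at these loci was downstream of Rara (mm10, chr11:98981710-98982924), from 61.4 to 17.7 (change -48.8). That region did not pair 1 to 1, and another mets region that overlaps it was at 57.7. Another downstream region, paired 1 to 1, fell from 72.9 to 54.2 (change -27.4).

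VDR, the vitamin D receptor, had nearly the same number of regions in both HPAF-II lists, 28 in control and 29 in HNF4G-KO, of which 2 and 2 were in 1 list, the higher of each downstream at 33.9 and 6.36. Its window also held start sites of HDAC7 and TMEM106C. One start-site region (hg38, chr12:47904487-47905803) was at 72.5 and 84.2 (change 19.0) and another (chr12:47881738-47883642) at 72.8 and 46.3 (change -22.9, not a 1 to 1 pair). Downstream of the gene one region fell from 63.1 to 27.1 (change -29.6) and one rose from 20.2 to 38.9 (change 24.7). The largest change, 53.3, was in a fragment over a start site of HDAC7 that did not pair 1 to 1. In mouse the Vdr start-site region was at 32.3 and 47.1, and an intron region rose from 30.2 to 56.2 (change 20.3). The mets-only region lay 42000 bp upstream at 37.6.

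ESRRA, an orphan receptor that drives mitochondrial genes, sat among many genes, and 8 of its 17 control regions covered a start site of another gene. Its own start-site region (hg38, chr11:64304324-64306778) was at 80.3 and 79.9. The higher control-only region lay 4523 bp upstream at 22.3. One region over a start site of GPR137 rose from 31.0 to 49.5 (change 28.6), and the rise of 66.6 was in a fragment that did not pair 1 to 1. In KPC the highest Esrra start-site region was at 87.8 and 93.2, the strongest receptor start site in either KPC list, and 0 of 19 mets regions were mets-only. A wide region over a start site of the neighbor Bad, at 76.7 in the primary tumor list, did not pair 1 to 1. In mets it was split into regions at 32.2, 80.9 and 42.8, of which the one at 32.2 covered the Bad start site. The change of -44.0 sets it against the region at 42.8, which did not. The highest tumor-only region was at 1.69.

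NR2F2, the orphan receptor COUP-TFII, had 9 regions in control, of which 3 were control-only, against 5 in HNF4G-KO, all shared. Its start-site region was at 55.0 and 58.2, and the region 29434 bp upstream rose from 53.4 to 67.6 (change 25.3). The rise of 41.5 in an intron region was not from a 1 to 1 pair. The highest control-only region lay in an intron, 1414 bp into the gene, at 25.5. In mouse 0 of 8 and 0 of 9 Nr2f2 regions were in 1 list, and none of the 8 shared regions moved by 20 points.

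NR3C1, the glucocorticoid receptor, ranked higher at its start and lower at 3 regions away from it in HNF4G-KO. Its start-site region (hg38, chr5:143402928-143405748) was at 69.8 in control and 83.9 in HNF4G-KO (change 22.2, not a 1 to 1 pair). Of the 5 falls in HPAF-II among 1 to 1 pairs 3 were here: a downstream region from 76.6 to 44.04 (change -30.4), an intron region 79498 bp into the gene from 85.5 to 58.9 (change -26.2) and one 58289 bp into the gene from 48.4 to 13.0 (change -23.5). Control-only regions numbered 6 of 18, at percentiles from 9.47 to 33.0, with the highest 13211 bp upstream. The 1 KO-only region of 14 lay in an intron at 5.19. The strongest region of the window, downstream, was level at 94.8 and 94.4.

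The mouse gene also ranked higher at its start in mets. The highest start-site region of Nr3c1 was at 50.4 in the primary tumor list and 71.7 in mets (change 17.97), while the other was at 47.1 and 46.1 (change -8.52). An intron region 69025 bp into the gene fell from 55.4 to 16.4 (change -43.1), a downstream one fell from 52.4 to 37.4 (change -23.1), and an intron region 58451 bp into the gene rose from 26.4 to 57.4 (change 25.5). The strongest region, in an intron, was level at 98.3 and 96.8. The highest tumor-only region was in an intron at 13.9, and no mets region of Nr3c1 was mets-only.

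Regions at the receptor loci were searched for the elements that receptors bind, in 300 bp around each center, which can run past the ends of a narrow region, and on both strands. Direct repeats of the half-site with spacers of 1 to 5 bases (DR1 to DR5) were found in 0 of 167 control regions, which allows a share of up to 1.80% by 3 counts of the total and 2.25% by the Wilson interval, and in 1 of 136, 1 of 136 and 1 of 140 regions of the other lists, where 1.01%, 0.976%, 0.802% and 0.818% of all regions held one. The HNF4 sequence CAAAGTCCA was found in 0, 1, 2 and 1 regions, where 1.00%, 0.916%, 0.871% and 0.886% of all held it. The inverted repeat IR1 (half-sites facing each other around 1 base) was found in no region at the loci and in 0.0305% to 0.0382% of all. The glucocorticoid element, AGAACA with G also allowed at base 1 followed after 3 bases by its reverse complement, was found in none and in 0.0135% to 0.0165% of all. The ESRRA element TCAAGGTCA, which contains a half-site, was found within the 300 bp of 1 mets region, outside the region itself, and for 0.381% to 0.469% of all. At these counts no difference from the lists was detectable. Single half-sites were common, in 44.9%, 41.9%, 42.6% and 41.4% of the regions at the loci and 48.8%, 48.4%, 48.8% and 48.8% of all.
The sites shown are those of these direct repeats and HNF4 sequences that lie in shared regions, and they were chosen after the search. Capitals mark the element.
RARA start site, DR5, hg38 chr17:40341633-40341689, plus strand: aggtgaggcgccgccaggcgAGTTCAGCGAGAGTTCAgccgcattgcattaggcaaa
VDR intron, HNF4, hg38 chr12:47859239-47859287, minus strand: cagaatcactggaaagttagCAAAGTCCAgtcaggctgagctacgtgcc
Rara upstream, HNF4, mm10 chr11:98907781-98907829, minus strand: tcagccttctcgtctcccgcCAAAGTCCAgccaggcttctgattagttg
Esrra downstream, DR5, mm10 chr19:6869587-6869643, minus strand: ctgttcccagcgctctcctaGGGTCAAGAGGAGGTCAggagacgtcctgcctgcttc
The RARA element lies in the start-site region at 69.1 and 64.0, beyond the 300 bp searched in the control list but within the region of both lists. The Rara element lies upstream of the gene in a region at 94.95 in the primary tumor list and 97.5 in mets. A match is a run of letters and not a bound site.

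Genes that work with these receptors or answer to them were examined in the same windows. Among 95 genes, 23.5% of control regions were control-only (290 of 1235, 21.2 to 25.9), 5.93% of HNF4G-KO regions KO-only (61 of 1029, 4.64 to 7.54), 8.15% of primary tumor regions tumor-only (74 of 908, 6.54 to 10.1) and 15.9% of mets regions mets-only (163 of 1025, 13.8 to 18.3). Of the 36 shares of 9 gene lists, 3 had intervals that left out the share of the whole list. They were the mets-only share of the coregulators given above and both of the following shares of NR3C1 targets. These had 17 control-only regions of 120 (14.2%, 9.04 to 21.5), against 25.0% of all control regions, and 20 mets-only regions of 146 (13.7%, 9.05 to 20.21), against 20.23% of all mets regions. Over coding genes with 10 or more regions in the same window, the median share per gene was 19.2% control-only and 11.8% mets-only. Each of the 3 intervals holds the median for its list, which is a measure per gene and not a share pooled over regions. Targets of VDR had 13 mets-only regions of 44 (29.5%, 18.2 to 44.2) and targets of NR1H4 1 KO-only region of 59 (1.69%, 0.30 to 8.996), both with intervals that held the background.

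Genes were named where more than 50% of at least 4 regions were in 1 list, or where a start site was covered in 1 list of a pair. All 5 mets regions at Nr5a2, a regulator of bile acid and acinar genes, were mets-only, against 20.2% of all mets regions. At NR5A1 6 of 11 control regions and at ABCB1, a drug efflux pump regulated by NR1I2, 5 of 9 were control-only, against 25.0% of all. Their HNF4G-KO regions were also often in 1 list. KO-only regions numbered 3 of 8 at NR5A1 and 2 of 6 at ABCB1, against 6.76% of all. Start sites covered in control alone were those of NR1I3, NR2E3, ABCC2, SLC51A, CPT1A and CD36, at percentiles from 17.9 to 62.5, and in HNF4G-KO alone those of NR2F6, NR5A2 and CARM1, at percentiles from 9.90 to 85.9. In KPC the primary tumor list alone covered a start of Ncoa1 and Angptl4, and the mets list alone a start of Esr2. At Ncoa1 0 of 3 and at Angptl4 0 of 13 primary tumor regions were tumor-only. Both start-site regions thus overlapped a mets region that stopped short of the start site. The same can hold for the other start sites named here.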

How the data were processed

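The authors deposited 1 BED list of accessible regions per group (HPAF-II control, HPAF-II HNF4G-KO, KPC primary tumor, KPC liver mets), with a whole-number score per region of unstated scale. Per the labels, the submitters' processing notes name Bowtie2 2.2.6, MACS2 2.1.1.20160309 and DiffBind, without roles or order, and the builds hg38 and mm10. No region ran past a chromosome end in those builds. The methods describe Omni-ATAC for HPAF-II and do not mention KPC for this assay. How replicates were pooled and reads were shifted is not given in the sources used here, depth per sample is unknown, and per-replicate reads were not analysed here.

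Groups came from the sample titles. Windows were gene bodies with 50 kb on each side (GENCODE 44 and M21), sharing was a 1 bp overlap, and coordinates are 1-based. Score percentiles were computed within each list, and changes among shared regions, each with its longest overlap. Overlap and pairing functions were tested on simulated lists (Python 3.11.15, pandas 2.3.3, NumPy 2.4.6, SciPy 1.17.1). Promoter, exon and intron classes came from any transcript of the gene.

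The members, gene lists and tests were chosen with earlier results of these data known. At each receptor the text names the highest start-site region and the highest region in 1 list, for each list, and the largest rise and fall of 20 points or more per pair; other regions named were chosen after their values were seen. The counts over regions paired 1 to 1 were added after the data were seen. Alternatives covered overlap, window, score, list size, ranking, start sites, motif form and each gene left out. Some sequences of control-only regions and 1 further gene of the other lists are not reported here.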

Additional observations from a re-analysis of the deposited data

How the results depend on the processing

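No paired analysis was possible because each group was given as 1 region list, with no value per replicate, so no replicate could be left out either. With 50% of both regions required to overlap, shares rose to 29.9% control-only, 14.0% KO-only, 16.9% tumor-only and 19.3% mets-only at the receptor loci, and to 30.4%, 16.5%, 13.4% and 23.3% over the other genes. The control-only share fell to 9.41% when both lists were cut to the upper 50% of their scores and to 5.69% when both were cut to an equal number of regions. Ranked within whole lists, the median shift was -0.86 from control to HNF4G-KO, where the sign turned, and 2.51 from primary tumor to mets. By the gene's own 5′ end alone, 1 gene in control, 2 in HNF4G-KO, 4 in primary tumor and 3 in mets had a start-site region. With the single consensus half-site the share of regions with a direct repeat was 0 in HNF4G-KO, primary tumor and mets. Regions that rose in HNF4G-KO numbered 10 among 1 to 1 pairs against 17, an alternative chosen after seeing the data. The 104 other checks of these results stayed within their limits, leaving out any single locus included. Of the checks on single loci, gene lists and motifs 350 stayed within them and 72 did not, most often with 50% overlap (18), cut to the upper 50% (15) or cut to equal number (14). The cause of these changes was not tested. Shares per locus rest on 4 to 31 regions, and the unknown depth of the lists limits all of them.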
